A study of Homo sapiens with 6 samples.

Results

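The enzymes that carry glucose carbon from glucose phosphate to pyruvate were followed through the 6 RNA-seq libraries as a set of 10 genes, out of 60664 genes in the deposited table. They were chosen by name: GPI, ALDOA, ALDOC, TPI1, GAPDH, PGK1, PGAM1, ENO1, ENO2 and PKM. The rule uses no measured value, although the set was proposed with earlier results of these data known. In glycolysis, GPI converts glucose phosphate to fructose phosphate, and once a further phosphate has been added aldolase splits the sugar into a pair of triose phosphates, which TPI1 interconverts. GAPDH, PGK1, PGAM1, enolase and pyruvate kinase then oxidize the triose and release its energy as ATP, ending in pyruvate. The steps of these genes are readily reversible and also serve gluconeogenesis, except that of pyruvate kinase. Aldolase and enolase exist as isozymes made from separate genes. ALDOA and ENO1 are the broadly expressed forms, and ALDOC and ENO2 are best known from nervous tissue.

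The cells were 67R, an ASK120067-resistant derivative of NCI-H1975, an EGFR-mutant human lung adenocarcinoma line, and ASK120067 is an EGFR tyrosine kinase inhibitor. All 6 libraries came from this resistant line, 3 after a negative control siRNA (labelled NC, here siNC) and 3 after siRNA against BCAT1 (siBCAT1). BCAT1 is the cytosolic aminotransferase that reversibly moves the amino group of leucine, isoleucine and valine onto α-ketoglutarate. The comparison asked how knockdown of BCAT1 bore on the mRNA of the resistant cells, and neither parental cells nor drug treatment were among the libraries. The study's methods give the name siBCAT1 to one siRNA sequence, so effects of that sequence on other transcripts and effects of the loss of BCAT1 cannot be told apart. The labels do not say whether the libraries of a group came from separate cultures, so p-values measure only the spread between these libraries.

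Levels are given in TPM, which scales the reads of a gene to its length and to the library's total, so that levels of different genes can be set side by side. TPM keeps no read counts, and the depth of the libraries is unknown. Where 3 values of a group are given, they follow replicates 1, 2 and 3. Fold changes are differences in log2(TPM + 1), siBCAT1 minus siNC, which understate the change of low genes. They were tested with limma over the 14286 genes whose mean reached 1 TPM, with Benjamini-Hochberg adjusted p-values and a threshold of 0.05. BCAT1 itself lay between 29.8 and 42.7 TPM in the siNC libraries and between 7.10 and 8.78 TPM in the siBCAT1 libraries, so the targeted gene followed the labels (log2 fold change -2.12, adjusted p = 0.000272). The keratins KRT7, KRT8, KRT18 and KRT19 of epithelial cells had means of 33.9 TPM or more in both groups, whereas NKX2-1, NAPSA and SFTPC, markers of lung adenocarcinoma and of alveolar cells, had means of 0.23 TPM or less. Of 7 tested epithelial markers 5 were called lower in siBCAT1, beside 10.4% of all tested genes. CDH1 by -2.41 and KRT19 by -1.41 on the log2 scale were among them. EGFR (-0.41, adjusted p = 0.0643) and EPCAM (0.56, adjusted p = 0.0732) passed in neither direction. EPCAM was low, with means of 1.27 TPM in siNC and 2.33 TPM in siBCAT1, and was higher in every siBCAT1 library. The part of these shifts in the results on the enzymes was not tested.

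Levels of 9 of the 10 enzyme mRNAs fell after BCAT1 knockdown and the level of PGAM1 did not pass the test in either direction. The mean of GPI fell by 13.1%, the least of the 9, and that of ALDOC fell by 48.2%, the most. The median log2 fold change of the 10 genes was -0.33, beside 0.04 for all tested genes. All 10 genes passed the filter on low values. Over all tested genes, 10.4% were called lower and 16.7% higher at the same threshold, against 9 and 0 of these 10. Without adjustment, at p under 0.05, the counts were also 9 and 0, beside 15.9% lower and 23.8% higher of all tested genes. Without the filter on low values 6 of the 10 were called lower, as GPI, ALDOC and ENO2 lost their calls. The excess of higher over lower genes in the whole table depended on scaling, with 1957 higher and 1802 lower by median-ratio scaling and 2042 and 1865 by quantile normalization, and 9 of the 10 enzymes were called lower under both. Each siBCAT1 library was under each siNC library for the same 9 genes, a pattern found for 18.0% of all tested genes. In bulk RNA a smaller amount of an mRNA per cell and fewer cells that make it cannot be told apart.

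**Figure D1:**
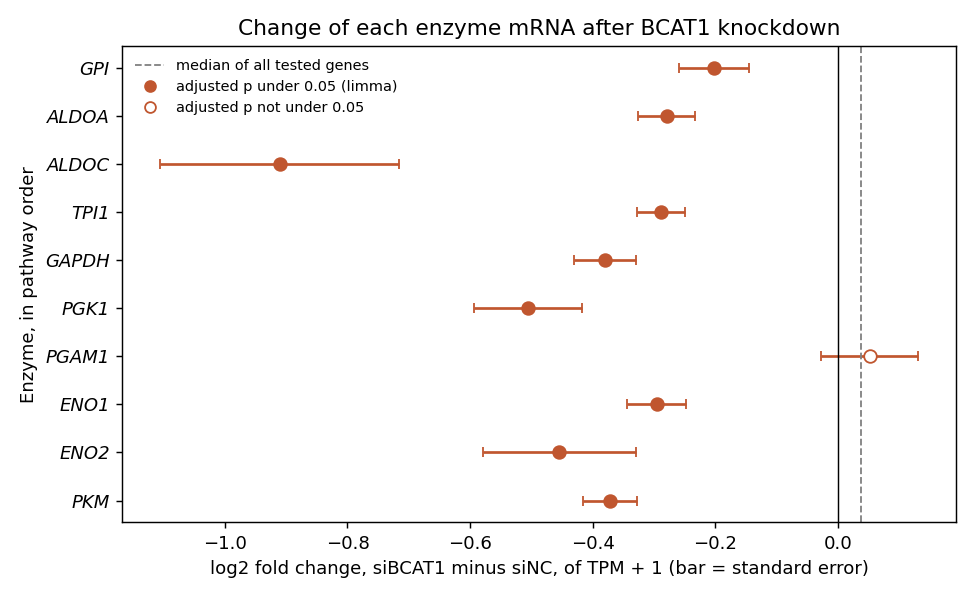
Log2 fold change (siBCAT1 minus siNC, of TPM + 1, n = 3 libraries a group) of each enzyme mRNA in pathway order, with bars of 1 standard error. Filled points passed limma's test at an adjusted p of 0.05, and PGAM1 (open, 0.05) lay beside the dashed median of all tested genes (0.04).

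Many glycolysis genes are textbook targets of hypoxia-inducible factors, which bind the core ACGTG or the core GCGTG, and of MYC, which binds the E-box CACGTG. The sequence around the RefSeq start site (250 bases before to 50 after, GRCh38.p14) was found for all 10 genes and searched for these letters on both strands. The windows of the 3 genes with the largest falls and of TPI1, which fell without any match, are shown to let the matches be read in place, with both hypoxia cores and their reverse complements in capitals. The ALDOC window is chr17:28576846-28577145 on the minus strand, and the plus-strand windows are chrX:78103998-78104297 for PGK1, chr12:6914330-6914629 for ENO2 and chr12:6867281-6867580 for TPI1.
ALDOC: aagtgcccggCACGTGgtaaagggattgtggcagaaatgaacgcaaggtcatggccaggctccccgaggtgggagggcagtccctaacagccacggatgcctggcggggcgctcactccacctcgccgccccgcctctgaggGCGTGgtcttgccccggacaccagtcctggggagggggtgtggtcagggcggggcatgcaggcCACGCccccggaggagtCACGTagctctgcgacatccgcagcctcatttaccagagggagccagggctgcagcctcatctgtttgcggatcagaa
PGK1: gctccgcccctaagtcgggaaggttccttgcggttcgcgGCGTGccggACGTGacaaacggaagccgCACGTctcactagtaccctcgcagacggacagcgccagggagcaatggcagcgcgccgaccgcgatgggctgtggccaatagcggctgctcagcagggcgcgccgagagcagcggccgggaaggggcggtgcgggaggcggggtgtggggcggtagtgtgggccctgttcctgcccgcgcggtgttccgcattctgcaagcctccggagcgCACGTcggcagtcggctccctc
ENO2: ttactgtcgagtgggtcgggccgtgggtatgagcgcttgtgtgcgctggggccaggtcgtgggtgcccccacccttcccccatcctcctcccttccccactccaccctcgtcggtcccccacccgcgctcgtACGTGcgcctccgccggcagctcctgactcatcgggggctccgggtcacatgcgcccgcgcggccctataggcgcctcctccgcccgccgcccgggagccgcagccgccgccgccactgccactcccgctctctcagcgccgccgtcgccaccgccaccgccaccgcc
TPI1: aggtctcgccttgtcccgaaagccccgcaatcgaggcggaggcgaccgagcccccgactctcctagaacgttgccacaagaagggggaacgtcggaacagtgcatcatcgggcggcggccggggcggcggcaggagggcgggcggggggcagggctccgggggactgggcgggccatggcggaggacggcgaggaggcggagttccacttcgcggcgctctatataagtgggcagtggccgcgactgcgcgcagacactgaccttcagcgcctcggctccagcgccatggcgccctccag

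The ALDOC window held ACGTG 3 times and GCGTG 2 times, the PGK1 window held them 3 times and 1 time, and the ENO2 window held ACGTG 1 time. The GAPDH window held ACGTG 2 times and the ENO1 window GCGTG 2 times. GPI and ALDOA had ACGTG 1 time each, and PKM had GCGTG 1 time. A link between the number of matches and the size of the fall was not tested. At least 1 of these cores was found in 8 of the 10 windows, and in 48.4% of the 35116 promoter windows of the same length in the RefSeq table. ACGTG alone was in 6 of the 10 (21.4% of all windows) and GCGTG in 4 (36.5%). CACGTG, which reads the same on both strands and holds ACGTG on each, was in 2, those of ALDOC and GAPDH (7.26% of all windows). Each CACGTG site therefore entered the ACGTG counts 2 times, 1 time on each strand. The GC content of the windows ran from 53.3% for PGAM1 to 75.0% for ENO2, beside a median of 58.7% over all windows. Only PGAM1, ALDOA (56.0%) and GPI (56.7%) were under that median. Each of the searched words holds CG, and the part of GC content in these counts was not tested. TPI1 and PGAM1, of which TPI1 fell and PGAM1 passed in neither direction, had no match. The windows of 6 genes did not reach the start of the principal GENCODE transcript. Their RefSeq start was 1658 bases downstream of it for PGAM1, 1337 for GAPDH, 564 for ENO1, 369 for ALDOC and 253 for ENO2, and for GPI it lay upstream, at -135. The matches in the ALDOC and ENO2 windows thus describe other annotated or nearby starts, while the RefSeq start was 0 bases from the principal one for TPI1 and 74 for PGK1. A match of letters is not a bound site, and binding was not measured here.

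GPI (ENSG00000105220, chromosome 19, 34359480 to 34402413, plus strand, GRCh38 as all positions of genes here), the isomerase at the entry of the route, measured 494, 449 and 458 TPM in siNC against 389, 404 and 425 TPM in siBCAT1. The groups did not overlap, but the highest siBCAT1 library lay close to the lowest siNC library. The fall was the smallest among the 9 (log2 fold change -0.20, standard error 0.057, adjusted p = 0.0361), and the adjusted p was between 0.077 and 0.116 without siNC replicate 1, siNC replicate 3, siBCAT1 replicate 1 or siBCAT1 replicate 2. The GPI call was also lost without the filter on low values (0.0933) and with the gene length correction (0.0584).

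ALDOA (ENSG00000149925, chromosome 16, 30064164 to 30070457, plus strand) encodes the aldolase of muscle and of most tissues. Its level was 1944.5, 1919.7 and 1912 TPM in siNC, against 1629, 1646 and 1488 TPM in siBCAT1. The siNC libraries were almost level and each lay over all siBCAT1 libraries (log2 fold change -0.28, standard error 0.047, adjusted p = 0.00542). ALDOC (ENSG00000109107, chromosome 17, 28573115 to 28577264, minus strand), the aldolase of brain, gave 53.7, 33.8 and 49.2 TPM in siNC against 28.5, 22.4 and 19.8 TPM in siBCAT1. It had the largest fall of the set and also the widest spread, with siNC replicate 2 the lowest of its group and still over every siBCAT1 library (log2 fold change -0.91, standard error 0.19, adjusted p = 0.0141). TPI1 (ENSG00000111669, chromosome 12, 6867119 to 6870948, plus strand), which equilibrates the products of aldolase, gave 1353, 1362 and 1343 TPM in siNC against 1082, 1151 and 1090.3 TPM in siBCAT1. Its libraries were the most alike within siNC, with a standard deviation of 0.705% of the mean, and the groups lay well apart (log2 fold change -0.29, standard error 0.039, adjusted p = 0.00242).

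**Figure D2:**
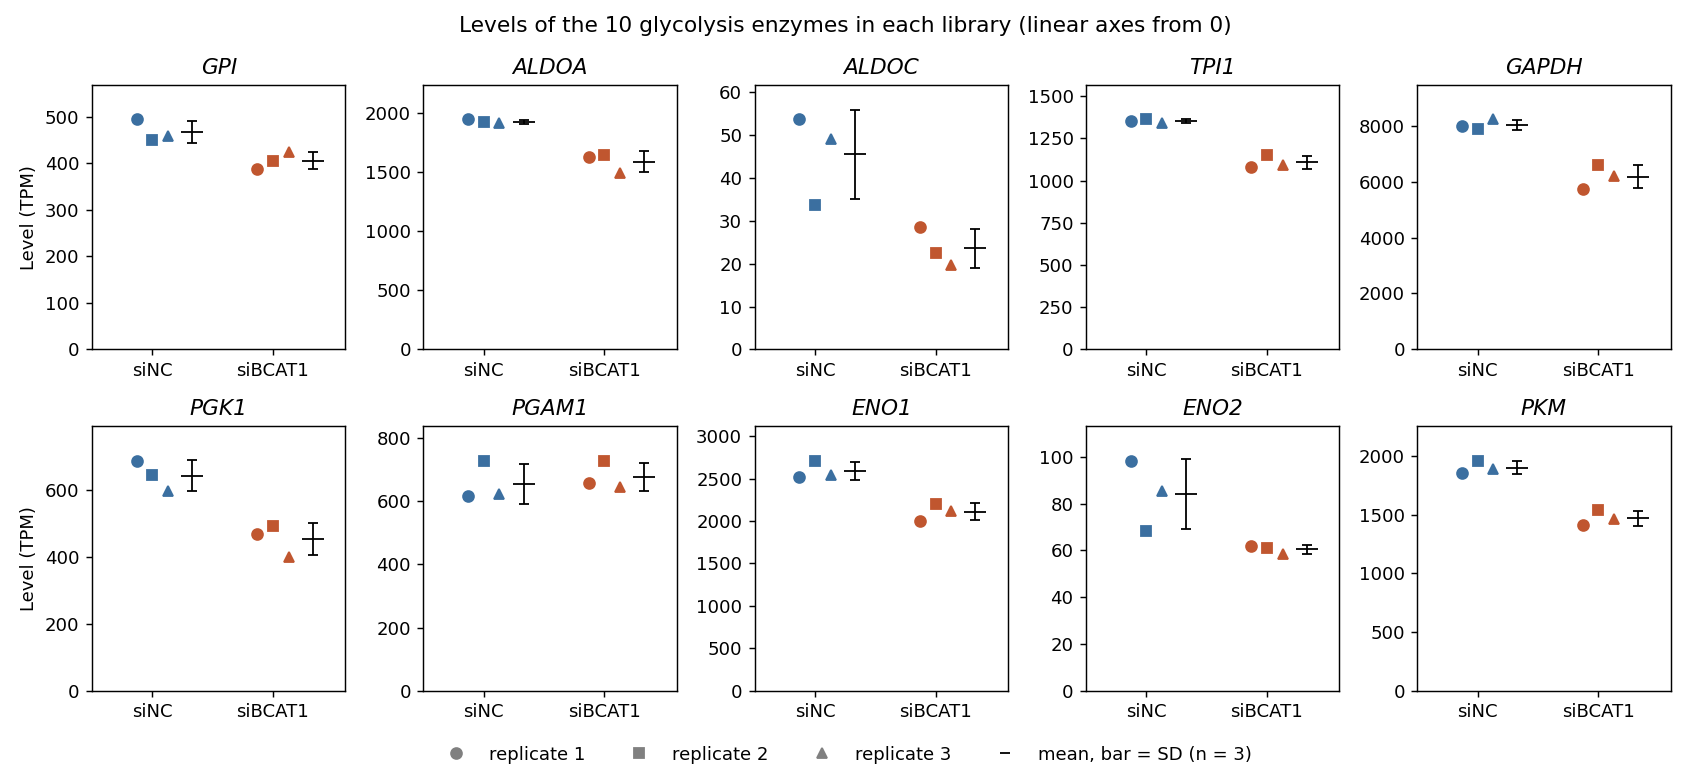
TPM of each of the 10 enzyme mRNAs in each library (circles, squares and triangles are replicates 1, 2 and 3), on linear axes from 0 that differ between panels, with the mean and SD (n = 3) beside each group. The siNC and siBCAT1 points overlap for PGAM1 alone, and siNC replicate 2 is the lowest siNC point for ALDOC (33.8 TPM) and ENO2 (68.4 TPM).

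GAPDH (ENSG00000111640, chromosome 12, 6533927 to 6538374, plus strand), which oxidizes the triose phosphate and reduces NAD, ranked 7th by mean TPM among all genes of the whole table. Its 3 siNC libraries held 7994, 7887 and 8226 TPM, against 5749, 6585 and 6215 TPM in siBCAT1. The distance between the groups exceeded the range within either of them (log2 fold change -0.38, standard error 0.051, adjusted p = 0.00237). PGK1 (ENSG00000102144, chromosome X, 77910739 to 78129296, plus strand), the kinase of the first ATP-forming step, measured 686, 644 and 595 TPM in siNC against 467, 491 and 399.5 TPM in siBCAT1. The groups were apart, and the mean fell by 29.5%, more than that of any other of the 10 genes but ALDOC (log2 fold change -0.51, standard error 0.088, adjusted p = 0.00647).

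PGAM1 (ENSG00000171314, chromosome 10, 97426160 to 97433441, plus strand), the mutase that moves the phosphate within phosphoglycerate, was the one that passed in neither direction. Its level was 616, 727 and 623 TPM in siNC, against 659, 729 and 645 TPM in siBCAT1. The groups overlapped, and replicate 2 was the highest library of both. The difference of 0.05 on the log2 scale (standard error 0.078, adjusted p = 0.667) had a 95% interval from -0.13 to 0.24, and its sign turned in 4 of 15 alternative analyses, with values down to -0.021. That interval did not reach the point estimate of any of the other 9 genes, whose log2 fold changes were -0.20 or lower. Those estimates have errors of their own (standard error 0.057 for GPI), so this is no test of a difference. The log2 ratio of GPI to PGAM1 overlapped between the groups (exact permutation p = 0.2).

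ENO1 (ENSG00000074800, chromosome 1, 8861000 to 8879250, minus strand), the ubiquitous enolase, measured 2515, 2711 and 2539 TPM in siNC against 2003, 2200.3 and 2122 TPM in siBCAT1. All siBCAT1 libraries were lower than all siNC libraries (log2 fold change -0.30, standard error 0.049, adjusted p = 0.00516). ENO2 (ENSG00000111674, chromosome 12, 6913745 to 6923698, plus strand), the neuron-specific enolase that is also used as a marker of neuroendocrine tumours, gave 98.4, 68.4 and 85.2 TPM in siNC against 62.1, 60.8 and 58.3 TPM in siBCAT1. The siBCAT1 libraries were tightly grouped under a widely spread siNC group (log2 fold change -0.45, standard error 0.13, adjusted p = 0.0344), and the call was lost when any library but siNC replicate 2 was left out, with adjusted p between 0.0792 and 0.0954. PKM (ENSG00000067225, chromosome 15, 72199029 to 72231822, minus strand), the pyruvate kinase of most tissues and tumours, gave 1859.7, 1962 and 1888 TPM in siNC against 1411, 1539.95 and 1463 TPM in siBCAT1. It had the lowest adjusted p of the set (log2 fold change -0.37, standard error 0.045, adjusted p = 0.0016), and its mean fell by 22.7%, where that of GAPDH fell by 23.1%.

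In both groups the levels per length ran from GAPDH at the top over ENO1, then ALDOA and PKM, to TPI1, with PGAM1, PGK1 and GPI next and ENO2 and ALDOC at the bottom. ALDOA and PKM did not differ beyond their spread in either group. PGAM1 and PGK1 overlapped in siNC, with means of 655 and 642 TPM, and were apart in siBCAT1, with means of 678 and 453 TPM. PGK1 and GPI were apart in siNC and overlapped in siBCAT1, with means of 453 and 406 TPM. The other neighbours in the order were apart in both groups.

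Summed over the 10 genes, the siNC libraries held 17699 ± 75.8 TPM and the siBCAT1 libraries 14079 ± 687 TPM (SD, n = 3). The sum took up 1.78% ± 0.0079 (SD, n = 3) of all TPM in siNC and 1.42% ± 0.069 (SD, n = 3) in siBCAT1. Each siBCAT1 library was under each siNC library (difference -0.366 percentage points, exact two-sided permutation p = 0.1, the smallest that 3 against 3 libraries allow). GAPDH alone made up 51.2% of the summed difference, ENO1 13.2%, PKM 11.9%, ALDOA 9.33%, TPI1 6.76% and PGK1 5.22%. The sum therefore mostly describes GAPDH, although ALDOC, PGK1 and ENO2 had larger log2 fold changes.

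The isozyme shares put the members of each enzyme beside each other within a library. ALDOC made up 2.69%, 1.73% and 2.51% of aldolase TPM in siNC and 1.72%, 1.34% and 1.31% in siBCAT1. The groups did not overlap, although siNC replicate 2 and siBCAT1 replicate 1 were nearly equal. The mean share was 2.31% ± 0.508 (SD, n = 3) in siNC and 1.46% ± 0.226 (SD, n = 3) in siBCAT1 (exact two-sided permutation p = 0.1, the smallest possible). ALDOA held nearly all the rest, and the aldolase genes together held 1971 ± 23.9 TPM in siNC, against 1611 ± 90.0 TPM in siBCAT1 (SD, n = 3). ENO2 made up 3.75%, 2.46% and 3.24% of enolase TPM in siNC and 2.998%, 2.68% and 2.67% in siBCAT1. These shares overlapped, with siNC replicate 2 the lowest of all 6 libraries (means 3.15% ± 0.652 and 2.78% ± 0.187, SD, n = 3, exact permutation p = 0.4). The difference in ENO2 share was -0.367 percentage points, -0.0659 without siNC replicate 1 and -0.713 without siNC replicate 2. With quantile normalization it was -0.762, so its size rested on single control libraries and on the normalization. Over the 25 shares, sums and ratios tested in this way, the smallest adjusted p by exact permutation was 0.179.

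**Figure D3:**
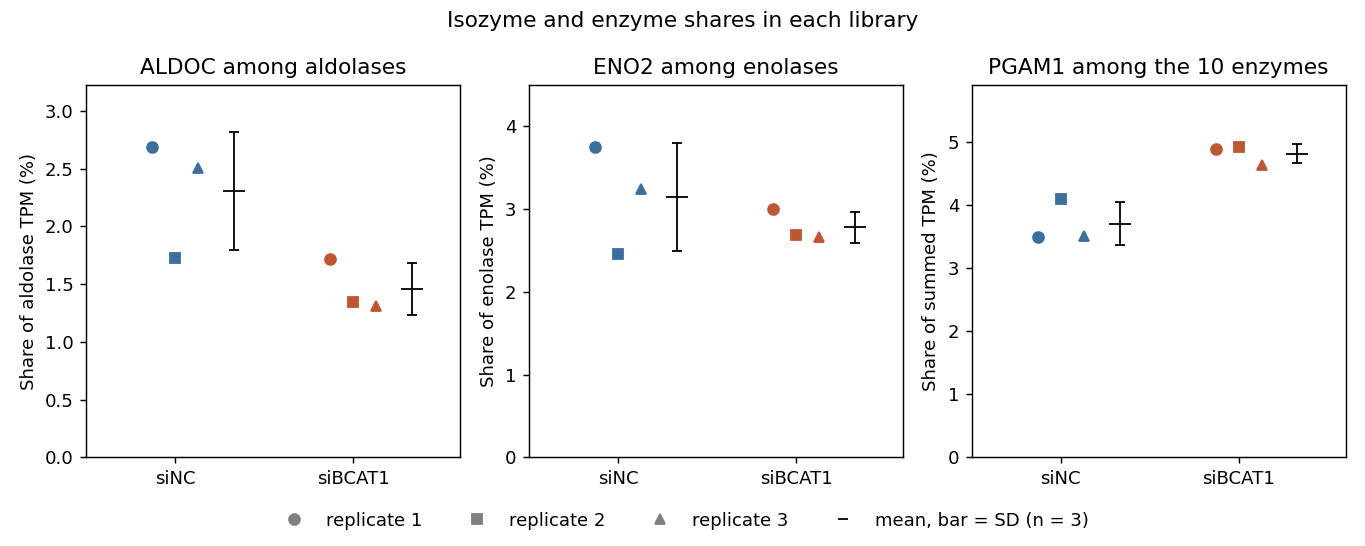
Share of ALDOC in aldolase TPM, of ENO2 in enolase TPM and of PGAM1 in the summed TPM of the 10 enzymes, in percent on axes from 0, in each library (symbols are replicates), with mean and SD (n = 3). The groups are apart for ALDOC (means 2.31% and 1.46%) and PGAM1 (3.70% and 4.81%) and overlap for ENO2 (3.15% and 2.78%).

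Ratios between the enzymes within a library do not change when all values of the library are multiplied by 1 factor. Quantile normalization and the gene length correction can change them. Of the 45 log2 ratios between pairs of the 10 genes, 18 did not overlap between groups, each with the smallest exact permutation p of 0.1 (0.25 adjusted over the 45). PGAM1 was in 8 of these 18, out of its 9 pairs, and its pair with GPI overlapped. PGAM1 made up 3.50%, 4.09% and 3.51% of the summed enzyme TPM in siNC and 4.89%, 4.92% and 4.63% in siBCAT1, a higher share in every siBCAT1 library. The share and the PGAM1 ratios come from the same values as the fold changes above and are not a separate result. Of the 18 ratios that lay apart, ALDOC relative to GPI, ALDOA and ENO2 accounted for 3 more. Among the other 8 genes, 7 of 28 ratios were apart, led by PGK1 relative to GPI, ALDOA, TPI1 and ENO1. TPI1 was higher relative to GAPDH by 0.09 and relative to PKM by 0.08 on the log2 scale, and ENO1 relative to PKM by 0.08, with groups that lay apart although the differences were small. The remaining 21 ratios overlapped between the groups. How often ratios between other genes lay apart was not counted, so these counts have no background share beside them.

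GAPDH, and at times PGK1, serves to normalize expression assays, so the levels of all 10 genes were also set against 11 other reference genes within each library. Relative to ACTB, cytoplasmic actin, the mean log2 ratio of GAPDH was lower by -0.51 in siBCAT1. GAPDH was apart and lower against 8 of the 11, and it overlapped against B2M, YWHAZ and RPL13A (-0.21, -0.08 and -0.11 on the log2 scale). GPI, ALDOA, TPI1, ENO1 and PKM were likewise lower against 8 of 11, ENO2 against 9, and PGK1 and ALDOC against 10. PGAM1 was lower against GUSB, higher against YWHAZ, and overlapped against the other 9. The reference genes were themselves not all level. YWHAZ (-0.30) and RPL13A (-0.27) were called lower and GUSB (0.31) higher, while the other 8 passed in neither direction. How often other genes of the table lay apart from these references was not counted.

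**Figure D4:**
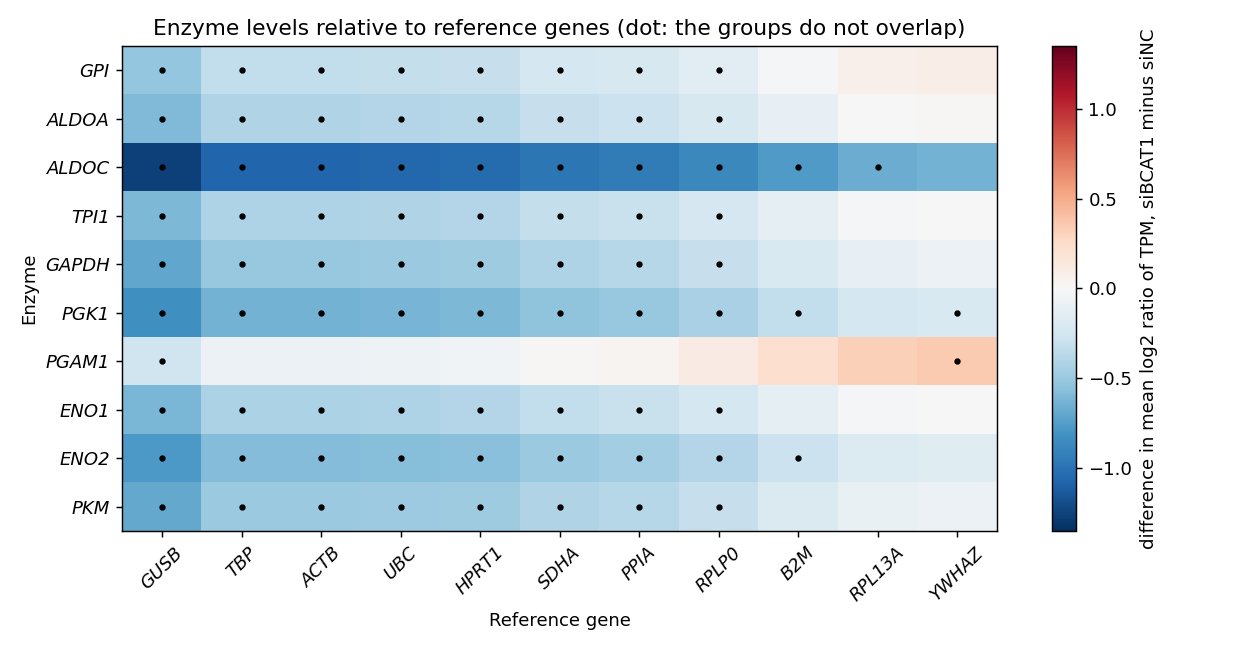
Difference in the mean log2 ratio of TPM (siBCAT1 minus siNC, n = 3 libraries a group) of each enzyme to each of 11 reference genes, as colours from blue (lower in siBCAT1) to red (higher). Dots mark ratios whose groups do not overlap, and GAPDH has dots for 8 of the 11 references while PGAM1 has 2.

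GAPDH, TPI1 and ENO2 lie on one stretch of the short arm of chromosome 12, 389.8 kb long from the start of GAPDH to the end of ENO2, with 42.8 kb between the end of TPI1 and the start of ENO2. The stretch holds 36 annotated genes, of which 21 were tested. All 3 enzymes were called lower. Of the 18 other tested genes 6 were called higher (MLF2, PTMS, P3H3, CDCA3, USP5 and SPSB2), 0 lower, and 12 passed in neither direction. The median log2 fold change of these 18 was 0.25. Over all tested genes, 16.7% were called higher and 10.4% lower, and a difference of the stretch from these shares was not tested. The tested genes on either side of TPI1 were among those that rose. USP5, a deubiquitinase, rose from 50.4 ± 1.73 to 72.2 ± 2.62 TPM (SD, n = 3; log2 fold change 0.51, standard error 0.063, adjusted p = 0.00176). SPSB2, which overlaps the end of TPI1 by 14 bases on the other strand, rose from 5.35 ± 0.166 to 10.3 ± 0.909 TPM (SD, n = 3; log2 fold change 0.82, standard error 0.11, adjusted p = 0.00204).

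Reads of these genes could be split with near-identical copies, because several have many processed pseudogenes. The table names 95 pseudogenes of the 10 genes, 65 of GAPDH and 13 of PGAM1 among them. Of these, 50 were listed at 0 in all libraries and none reached the filter of 1 TPM. Their means summed to 4.13 TPM in siNC and 3.91 TPM in siBCAT1, and for PGAM1, the parent with the largest share, to 0.163% of its own level in siNC. How the authors' counting treated reads that match several places is not given in the sources used here. The coding sequences of ALDOA and ALDOC were identical at 823 of 1092 bases (75.4%), with a longest identical run of 44 bases, and those of ENO1 and ENO2 at 988 of 1302 (75.9%), with a longest run of 50. ALDOA shares 6257 bases with a second protein-coding gene on the same strand, ENSG00000285043, whose mean was 74.5 TPM in siNC against 76.6 TPM in siBCAT1 (log2 fold change 0.04, adjusted p = 0.791). Summed with it, ALDOA was still lower in every siBCAT1 library (log2 difference -0.27, exact permutation p = 0.1).

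The other genes of the same steps were low or absent. BPGM, which makes bisphosphoglycerate, was at 8.51 ± 1.25 and 7.25 ± 0.314 TPM (SD, n = 3; log2 fold change -0.20, adjusted p = 0.284), and ENO3, the enolase of muscle, at 7.10 ± 1.52 and 5.50 ± 0.310 TPM (SD, n = 3; log2 fold change -0.30, adjusted p = 0.189). GAPDHS, PGK2 and PGAM2 were listed at 0 in every library. PGAM4, ENO4 and PKLR had group means of 0.24 TPM or less and were not tested. The markers that share tissues with ENO2 and ALDOC were also near 0. Of 6 neuroendocrine markers none passed the filter, INSM1 was at 0, and SYP, the highest, lay between 0.64 and 1.39 TPM. GFAP, SLC1A3 and RBFOX3 of neural cells did not pass it either, with GFAP between 0.65 and 1.25 TPM. Of the leukocyte markers PTPRC and CD3E had means of 0.11 TPM or less and CD68 rose (0.71, adjusted p = 0.00342), and PECAM1 and VWF of endothelium had means of 0.02 TPM or less. Of the fibroblast markers COL1A1 fell (-0.68, adjusted p = 0.0197), COL1A2 was at 243 and 211 TPM and passed in neither direction, and DCN was at 0, and the part of these shifts in the falls of the enzymes was not tested.

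Outside the 10 genes, the rest of the route did not move as one. Of 9 tested genes for glucose uptake, hexokinase, phosphofructokinase and lactate dehydrogenase 3 fell, 1 rose and 5 passed in neither direction. Their median log2 fold change was -0.09. Over all tested genes, 10.4% were called lower and 16.7% higher. For 5 of the 9, HK1 and LDHB among them, each siBCAT1 library was under each siNC library, beside 18.0% of all tested genes. LDHA, which turns the pyruvate made by PKM into lactate, fell from 2506 ± 104 to 1402 ± 101 TPM (SD, n = 3; log2 fold change -0.84, standard error 0.060, adjusted p = 0.000267). The glucose transporter SLC2A1 (-0.68, adjusted p = 0.0109) and the platelet phosphofructokinase PFKP (-0.54, adjusted p = 0.000269) fell as well, while the liver phosphofructokinase PFKL rose (0.98, adjusted p = 0.00621). SLC2A3, HK1, HK2, PFKM and LDHB were the 5 that passed in neither direction.

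Enzymes that use the same intermediates in other directions were counted as well, with no test of a difference from the 10 genes. The shares over all tested genes were again 10.4% lower and 16.7% higher. Of the 3 tested genes of gluconeogenesis, PCK2, which makes phosphoenolpyruvate, the substrate of PKM, in mitochondria, rose from 20.4 ± 3.20 to 60.8 ± 10.2 TPM (SD, n = 3; log2 fold change 1.53, standard error 0.15, adjusted p = 0.000849). G6PC3 also rose (0.44, adjusted p = 0.00353) and PC, pyruvate carboxylase, fell (-0.40, adjusted p = 0.0462). FBP1, FBP2, PCK1 and G6PC1 did not pass the filter on low values. Of 5 tested genes at the branches from triose phosphates and phosphoglycerate, PHGDH, which draws phosphoglycerate into serine synthesis, rose from 109.7 ± 12.5 to 160.1 ± 7.77 TPM (SD, n = 3; log2 fold change 0.55, standard error 0.089, adjusted p = 0.00506). GPD1L, GPD2, GLO1 and HAGH passed in neither direction, and GPD1 was under the filter. Of 4 splicing factors that act on the alternative exons of PKM, PTBP1 (0.30, adjusted p = 0.0206) and HNRNPA1 (0.25, adjusted p = 0.0263) rose and HNRNPA2B1 and SRSF3 passed in neither direction. The table holds 1 value per gene, so the PKM1 and PKM2 transcripts were not separated.

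The enzymes also differed in how closely they followed each other. After centring each gene on its mean over the 6 libraries, the root mean square difference from the mean profile of the 10 genes was 0.053 for ALDOA and 0.053 for TPI1 (log2 units), the closest, and 0.233 for PGAM1 and 0.353 for ALDOC, the farthest. Among the 8315 other genes that averaged 10 TPM or more, the profiles nearest to that mean were those of TRERF1 (0.025), KIF13A (0.026), PPIC (0.028), PLBD2 (0.029) and TMBIM6 (0.029). Each of these 5 genes was nearer to the mean profile than any of the 10 enzymes was. The 5 genes were picked as the nearest of the 8315, so this says little about the enzymes. The likeness rests on 6 libraries in 2 groups. TMBIM6, the most abundant of them, averaged 300.5 TPM in siNC, against 232 TPM in siBCAT1.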

How the data were processed

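The 6 RNA-seq libraries of 67R cells, 3 siNC and 3 siBCAT1, were assigned to groups and replicate numbers by their labels. The authors extracted total RNA with TRIzol and prepared stranded mRNA libraries. The submitters' processing notes name fastp, HISAT2, StringTie and GRCh38, and versions and annotation are not given in the sources used here. The authors deposited 1 TPM value per gene and library for 60664 genes, to 2 decimals. Totals were between 992512 and 995593 per library, 23152 to 25043 genes were above 0, and depth is unknown, so precision rests on the spread between 3 libraries. No replicates were pooled, and replicates had equal values for at most 1.42% of tested genes.

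Values were transformed to log2(TPM + 1), and limma 3.58.1 under R 4.3.3 (lmFit, then eBayes with a trend) was run on the 14286 genes averaging 1 TPM or more. Tests were two-sided at 0.05 after Benjamini-Hochberg adjustment. Shares and ratios were tested by exact permutation of libraries. Coordinates and coding sequences were taken from GENCODE 29 and promoters from the RefSeq table on GRCh38.p14. Isozymes were aligned with Biopython 1.88 in Python 3.11.15, with matplotlib 3.10.9 for figures. The genes named were the 10 enzymes, BCAT1, the lists described in the report, the markers, the pseudogenes and the 5 nearest profiles, and the neighbours on chromosome 12 were named after their values were seen. The members and the lists were chosen with earlier results of these data known. A few genes of these lists are not reported here. The scripts were tested on simulated data.

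The alternatives were no filter, a minimum mean of 5 TPM, a replicate block, a pseudocount of 0.1, each library left out, median-ratio scaling, quantile normalization, a loess correction for gene length (span 0.5) and, for the summed share, leaving out mitochondrially encoded genes. A correction for GC content and length, with and without the block, was chosen after seeing the data.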

Additional observations from a re-analysis of the deposited data

How the results depend on the processing

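Between 6 (no filter) and 9 of the 10 enzymes were called lower in each of the 15 alternatives, 7 to 9 with a library left out, and no alternative called one higher. ALDOA, TPI1, GAPDH, PGK1, ENO1 and PKM were called lower in all 15. The call was lost for GPI in 8 (adjusted p up to 0.116), for ENO2 in 6 (up to 0.0983) and for ALDOC in 1, without a filter (0.0528), where 31860 genes were tested. PGAM1 turned to -0.0021 without siBCAT1 replicate 2, to -0.0070 with the gene length correction and to -0.021 with the GC content and length correction, with and without the block, while without siNC replicate 2 it was 0.128, and no analysis called it. The difference in the enzymes' share of all TPM was -0.311 percentage points with quantile normalization and -0.418 without mitochondrially encoded genes. The BCAT1 log2 fold change lay between -2.28 and -2.03.

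Same-numbered libraries correlated at 0.0844, 0.102 and 0.124 in their deviations from the group means, and every library correlated best with its own number, a hint from the data and not from the design. With the number as a block, 8 enzymes were called lower, as GPI lost its call (adjusted p = 0.0543, and 0.052 together with the GC content and length correction), and over all genes 1795 were lower and 2773 higher, against 1483 and 2382 without it. Over all genes, 859 were called lower without siNC replicate 1, 958 without siBCAT1 replicate 2, 987 without siBCAT1 replicate 3 and 960 without the filter, and 1501 were called higher without siBCAT1 replicate 1. The other alternatives moved neither count by over 1.5 times. The cause of these changes was not tested. TPM holds no depth, so no counting error was given for single values.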
